A study of Mus musculus with 4 samples.

Results

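Transcription of the genes for the factors that set and release promoter-proximal pausing of RNA polymerase II (Pol II) was examined in double positive (DP) thymocytes with and without Tox4. The set held 10 genes of the 24984 in the table, taken by gene symbol. They were the 4 genes of the negative elongation factor NELF (Nelfa, Nelfb, Nelfcd and Nelfe), the 2 genes of DSIF (Supt4a and Supt5), the kinase gene and 2 cyclin genes of P-TEFb (Cdk9, Ccnt1 and Ccnt2), and Hexim1, which encodes an inhibitor of P-TEFb.

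Soon after initiation Pol II is held near the start of a gene by NELF and DSIF. P-TEFb releases it by phosphorylating NELF, the Spt5 subunit of DSIF and the Pol II C-terminal domain, after which NELF leaves and DSIF travels on with Pol II as a positive factor. Much of cellular P-TEFb is kept inactive by HEXIM proteins bound to 7SK RNA. Tox4 is a partner of the PP1 phosphatases, and the study examined dephosphorylation of Pol II and of Spt5, which are both substrates of P-TEFb. The comparison here asks whether the genes of this machinery were themselves transcribed differently.

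TTchem-seq labels newly made RNA with a pulse of 4-thiouridine and sequences the labelled fragments, so counts over a whole gene, introns included, reflect its transcription. There were 2 libraries of Tox4;F/F thymocytes (WT), which carry the floxed allele of Tox4 exons 4 to 6 and no Cre, and 2 libraries of Tox4;F/F;Lck+ thymocytes (cKO), which carry the same allele and a Cre driven by the proximal Lck promoter, active in developing T cells. The mice were littermates of 6 to 8 weeks on a C57BL/6 background. CD4 bead purification of thymic DP cells is described for other assays of the study, and the purification used for this one was not stated.

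The libraries held 38429786 to 48690591 fragments. Tox4 itself had 74.04 and 70.3 CPM (the usual measure of a gene's fragments relative to all fragments of its library) over its whole gene in WT and 59.3 and 57.2 CPM in cKO, with a log2 fold change of -0.31 (SE 0.0998; adjusted p = 0.0453 with DESeq2 and 0.153 with edgeR). With 1 library left out its DESeq2 adjusted p was 0.196 to 0.792. The whole-gene count does not isolate the deleted exons. The 12 DP marker genes summed to between 5937 and 6573 CPM in each library. Single markers moved both ways, with Cd8a and Rag1 lower in cKO and Lck higher (log2 fold changes of -0.54, -0.31 and 0.29, DESeq2 adjusted p = 1.21e-05, 0.0499 and 0.00478). Markers of erythroid, B, myeloid and stromal cells each summed to at most 11.98 CPM, and those of mature single positive cells to between 428 and 491 CPM. Among the single positive markers, Il7r was higher in cKO and Ccr7 lower, with log2 fold changes of 0.36 and -0.34 (DESeq2 adjusted p = 0.0125 and 0.00714). The 6 genes of cycling cells summed to 201 CPM in WT replicate 1 and to 332 to 428 CPM in the other 3 libraries. The 8 immediate early genes, which respond within minutes to signals and handling, summed to 251 and 307 CPM in WT and 257 and 227 CPM in cKO. Of these Egr1 and Jun were lower in cKO (log2 fold changes of -0.70 and -0.57, DESeq2 adjusted p = 0.00406 and 0.00774). Xist, which is expressed from the inactive X chromosome of female cells, was high in WT replicate 1 alone (172 CPM, against at most 2.36 CPM elsewhere), although the methods describe mice matched for sex. What part these genes had in the values below was not tested, and the differences are given without WT replicate 1 as well. In bulk libraries fewer cells of a type and less RNA per cell cannot be told apart.

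The upstream sequences of 3 of the genes are shown, because Hexim1 and Supt5 had the lowest unadjusted p-values among the genes with lower counts in cKO and Supt4a is the partner of Supt5. Each is the 250 bases before the annotated start, 5′ to 3′ in the direction of transcription, from RefSeq on GRCm38.p6. Of the 10 genes, 8 were matched in the promoter table, and Nelfcd and Nelfe were not. Capitals mark the letters of 5 motifs searched on both strands and picked after the sequences had been read: TATAA (TATA box), GGGCGG (GC box), CCGGAAG (ETS), GCATGCGC (NRF1) and AAGATGGC (YY1).

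Hexim1, chromosome 11, 103116075 to 103116324, plus strand: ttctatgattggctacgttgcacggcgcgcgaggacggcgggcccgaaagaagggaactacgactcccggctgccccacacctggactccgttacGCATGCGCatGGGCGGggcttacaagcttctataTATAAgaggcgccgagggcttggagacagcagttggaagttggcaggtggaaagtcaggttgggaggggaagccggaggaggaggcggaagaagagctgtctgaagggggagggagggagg
Supt5, chromosome 7, 28338720 to 28338969, minus strand: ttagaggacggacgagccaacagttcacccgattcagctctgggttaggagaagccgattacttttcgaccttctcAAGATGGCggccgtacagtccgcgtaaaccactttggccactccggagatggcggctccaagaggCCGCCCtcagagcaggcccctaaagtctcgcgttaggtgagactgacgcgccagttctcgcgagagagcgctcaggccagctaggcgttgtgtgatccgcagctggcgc
Supt4a, chromosome 11, 87737301 to 87737550, plus strand: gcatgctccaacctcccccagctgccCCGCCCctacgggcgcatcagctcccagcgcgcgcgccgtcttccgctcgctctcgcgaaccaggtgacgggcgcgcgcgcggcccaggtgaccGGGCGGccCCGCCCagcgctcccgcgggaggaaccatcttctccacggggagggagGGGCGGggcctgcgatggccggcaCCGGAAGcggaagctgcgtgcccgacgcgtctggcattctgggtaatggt

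All 8 matched genes held the GC box in this window, against 32.7% of the 32851 windows in the table. Among the 8, the TATA box letters were found for Hexim1 and Nelfb (22.8% of all windows), the ETS letters for Cdk9, Supt4a and Ccnt1 (6.91%), the NRF1 letters for Hexim1 (2.26%) and the YY1 letters for Supt5 (1.56%). The TATA box letters began 121 bases before the annotated start of Hexim1 and 229 bases before that of Nelfb. The window of Hexim1 was 61.2% G and C, that of Supt5 60% and that of Supt4a 74.4%, against a median of 52.4%. A match is a description of letters and not evidence of binding.

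All 10 genes were transcribed in DP cells. To compare genes, levels were divided by gene length, introns included, as CPM per kb. The share of spliced RNA in the libraries was not tested, so the order ranks counts per length. Hexim1, which has no introns, had the highest level per kb, 21.1 and 22.6 CPM per kb in WT and 19.5 and 17.8 in cKO. Its mean over the 4 libraries lay at percentile 97.6 of the 11625 genes that averaged at least 1 CPM. Supt4a, with a mean of 9.22 CPM per kb, and Cdk9, with 7.84, came next, and their ranges over the libraries overlapped. Supt5 followed with 5.70 CPM per kb and did not overlap with Cdk9 above it or Ccnt1 below it. The cyclin genes Ccnt1 and Ccnt2, at 4.32 and 4.22 CPM per kb, could not be ranked against each other. Nelfa, Nelfcd and Nelfb lay between 2.99 and 3.26 CPM per kb, each overlapping its neighbour. Nelfe was the lowest in every library, with 1.18 and 1.29 CPM per kb in WT and 1.94 and 1.47 in cKO, and its mean was at percentile 50.3. The mean of Nelfb, the next gene above it, was 2.03 times that of Nelfe.

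**Figure D1:**
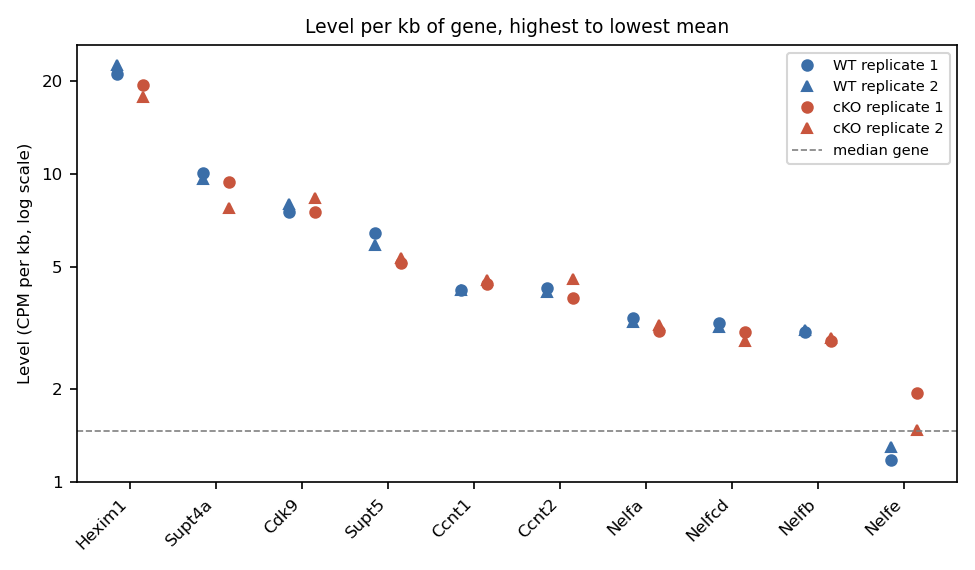
Level of each gene in CPM per kb of gene length (log axis), with the genes from highest to lowest mean, WT libraries in blue, cKO libraries in red, replicate 1 as circles and replicate 2 as triangles. The dashed line is the median of the 11625 genes averaging at least 1 CPM (1.46 CPM per kb). Hexim1 stands above all others and Nelfe lies at the line.

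None of the 10 genes was called as different between genotypes. A call required a DESeq2 adjusted p-value under 0.05, a change of 1.2-fold or more and a mean of at least 1 CPM, and 3.71% of the 11625 genes met it (2.14% increased and 1.57% decreased). All 10 genes passed the minimum CPM. The number called was also 0 with edgeR (0.499% of all genes) and with limma voom (0.525%). Before adjustment, p was under 0.05 for 3 of the 10 genes with DESeq2, namely Supt5, Hexim1 and Nelfe, against 13.5% of all genes, and also for 3 each with edgeR (15.6%) and limma voom (15.8%). The log2 fold change was below 0 for 6 genes and above 0 for 4, where 49.8% of all genes were below 0. The median over the 10 genes was -0.09, beside 0.00 over the 11625 genes. Only Nelfe had an estimated change of at least 1.2-fold.

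**Figure D2:**
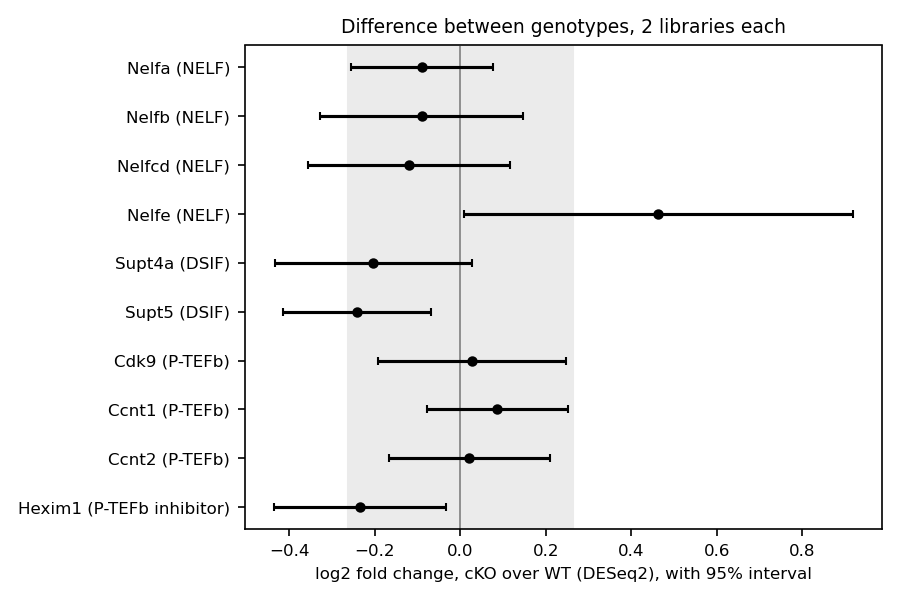
Log2 fold change of cKO over WT from DESeq2 for each gene, with its 95% interval, from 2 libraries of each genotype. The grey band holds changes under 1.2-fold. The point of Nelfe alone lies outside the band, at 0.46, and its interval is the widest.

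DSIF is the heterodimer of Spt4 and Spt5, of which Spt5 carries the residues that P-TEFb phosphorylates. Supt5 (GRCm38 chromosome 7, 28314896 to 28338719) gave 154 and 140.2 CPM in WT and 122 and 127 CPM in cKO. Both cKO libraries lay below both WT libraries, and the means were 147 ± 9.51 CPM in WT and 124 ± 3.62 CPM in cKO (SD, n = 2). Supt5 had the lowest p-value of the set. Its log2 fold change was -0.24 (SE 0.0879, 95% interval -0.41 to -0.07), with an adjusted p = 0.102 in DESeq2 and 0.215 in edgeR.

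Supt4a (chromosome 11, 87737551 to 87743622), which encodes the small subunit, gave 61.1 and 58.7 CPM in WT and 57.01 and 47.2 CPM in cKO. The groups did not overlap, but the difference between the cKO libraries was larger than the gap between the groups. The log2 fold change of Supt4a was -0.20 (SE 0.117, 95% interval -0.43 to 0.03; adjusted p = 0.458 with DESeq2). The related gene Supt4b had at most 1 fragment in a library. Summed over both DSIF genes the level was 16.5 and 15.5 CPM per kb in WT and 14.5 and 13.1 in cKO, without overlap.

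Hexim1 (chromosome 11, 103116325 to 103119724), the inhibitor that binds P-TEFb together with 7SK RNA, gave 71.8 and 76.7 CPM in WT and 66.1 and 60.4 CPM in cKO. Both cKO libraries were lower than both WT libraries. The log2 fold change was -0.23 (SE 0.103, 95% interval -0.44 to -0.03), and the adjusted p was 0.23 with DESeq2 and 0.278 with edgeR. Relative to Cdk9, the kinase it holds inactive, the level of Hexim1 per kb was 2.81 and 2.82 times as high in WT and 2.60 and 2.13 times as high in cKO. This ratio does not depend on how the libraries were scaled.

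NELF binds paused Pol II, with Nelfa, Nelfb and Nelfcd forming its body and Nelfe carrying an RNA-binding domain. Nelfe (chromosome 17, 34850391 to 34856372) had higher values in cKO, where the other NELF genes had lower ones, and this difference between genes was not tested. It gave 7.04 and 7.72 CPM in WT and 11.6 and 8.78 CPM in cKO, from 300 to 447 fragments. Both cKO libraries were above both WT libraries. The 95% counting interval of cKO replicate 1 ran from 10.6 to 12.8 CPM and that of cKO replicate 2 from 7.88 to 9.75 CPM (exact Poisson, which takes fragments as independent molecules and leaves out the spread between samples). The log2 fold change of Nelfe was 0.46 (SE 0.232, 95% interval 0.01 to 0.92; adjusted p = 0.338 with DESeq2 and 0.316 with edgeR). It was the largest estimate of the set and the least precise.

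Nelfa (chromosome 5, 33897916 to 33936271) gave 130.5 and 127 CPM in WT and 119 and 123 CPM in cKO. Nelfb (chromosome 2, 25199712 to 25211489) gave 36.0 and 36.6 CPM in WT and 33.8 and 34.5 CPM in cKO. Nelfcd (chromosome 2, 174415804 to 174427502) gave 38.3 and 37.2 CPM in WT and 35.9 and 33.6 CPM in cKO. In these 3 genes the cKO libraries were slightly lower without overlap, with log2 fold changes of -0.09, -0.09 and -0.12 and DESeq2 adjusted p-values between 0.736 and 0.834. Summed over the 4 NELF genes the level was 10.9 CPM per kb in both WT libraries and 10.98 and 10.5 CPM per kb in cKO, which overlapped.

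P-TEFb consists of the kinase Cdk9 with cyclin T1 or T2. Cdk9 (chromosome 2, 32705782 to 32712784) gave 52.7 and 56.0 CPM in WT and 52.5 and 58.4 CPM in cKO. Ccnt2 (chromosome 1, 127774164 to 127804837) gave 130.5 and 126 CPM in WT and 121 and 139.9 CPM in cKO. Both genes overlapped between genotypes, with log2 fold changes of 0.03 (SE 0.112) and 0.02 (SE 0.096). Ccnt1 (chromosome 15, 98538690 to 98567736) gave 122 CPM in both WT libraries and 128 and 131 CPM in the cKO libraries. Its cKO libraries were above its WT libraries, with a log2 fold change of 0.09 (SE 0.0841, adjusted p = 0.746 with DESeq2). Ccnt1 was at 0.983 and 1.02 times the level of Ccnt2 per kb in WT and at 1.11 and 0.991 times in cKO.

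**Figure D3:**
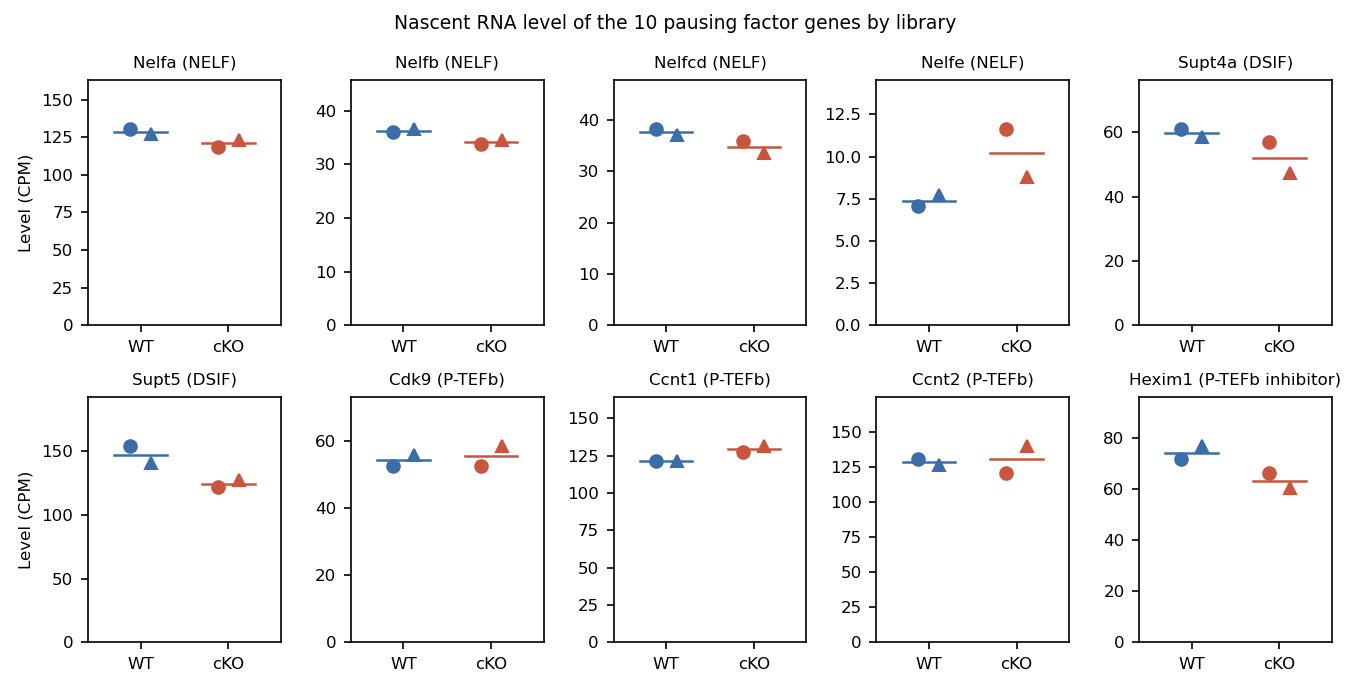
Level of each gene in CPM in the 4 libraries, with WT in blue and cKO in red, replicate 1 as circles, replicate 2 as triangles and lines at the means of 2 libraries. The cKO points lie below the WT points for 6 genes, above them for Nelfe and Ccnt1, and overlap for Cdk9 and Ccnt2.

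The cKO libraries lay below both WT libraries in 6 of the 10 genes, where 24% of all genes did, and above both in 2, where 24.9% did. With all 4 libraries, for Nelfa, Cdk9, Ccnt1 and Ccnt2 the whole 95% interval lay within 1.2-fold in either direction. The intervals of the other 6 genes reached beyond 1.2-fold, that of Nelfe alone reached 1.5-fold, and none reached 2-fold. These bounds did not hold with 1 library left out. No interval lay within 1.2-fold without WT replicate 1, cKO replicate 1 or cKO replicate 2, and that of Ccnt2 alone did without WT replicate 2. The interval of Nelfe passed 2-fold without WT replicate 1 (2.04-fold), WT replicate 2 (2.30-fold) or cKO replicate 2 (2.43-fold), and those of Supt4a and Hexim1 also reached 1.5-fold without cKO replicate 1. The interval of Cdk9 ran from 0.875 to 1.19 times the WT level and that of Nelfe from 1.01 to 1.89 times. The median SE was 0.11 over the 10 genes and 0.15 over the 11625 genes.

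The differences were recomputed with each library left out in turn. Then 1 library remains in a group and is assumed to vary like those of the other genotype. Without WT replicate 1, the library with the low sum of cycling genes, the log2 fold change was -0.18 for Supt5, -0.29 for Hexim1, -0.18 for Supt4a and 0.39 for Nelfe. The value for Supt4a depended on the cKO libraries, at -0.34 without cKO replicate 1 and -0.08 without cKO replicate 2. That of Nelfe spread further, with 0.26 when cKO replicate 1 and 0.65 when cKO replicate 2 was dropped. The sign changed for Cdk9 and Ccnt2, whose estimates were near 0, and for none of the other 8 genes. Calls were rare over all genes in these fits, so the absence of a call among the 10 genes says little about them.

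**Figure D4:**
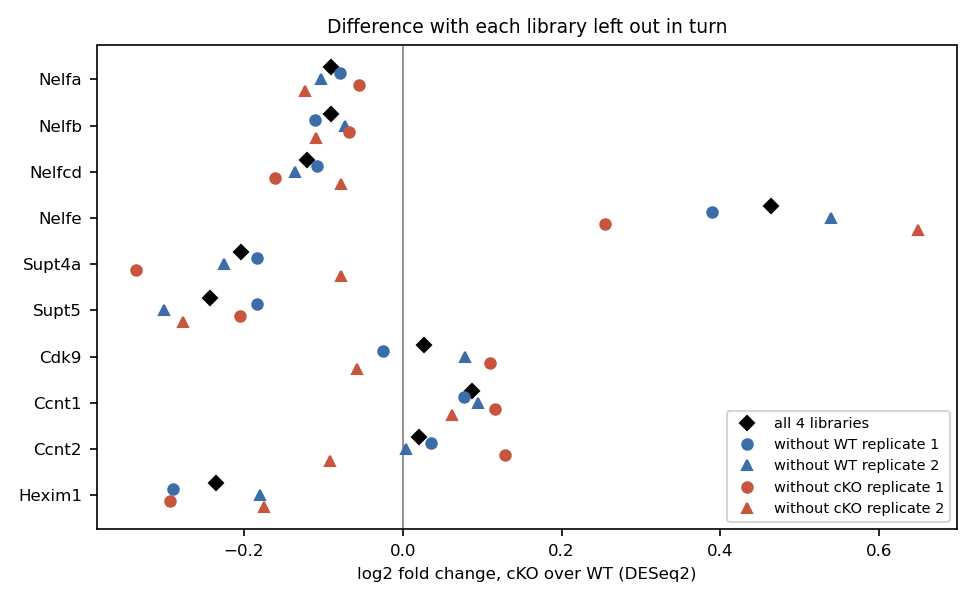
Log2 fold change of cKO over WT from DESeq2 with all 4 libraries (black diamonds) and with each library left out in turn (blue for a WT library, red for a cKO library). Values for Nelfe spread from 0.26 to 0.65 and those for Cdk9 and Ccnt2 fall on both sides of 0.

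Other genes of the elongation machinery were taken from 5 lists. The table held 41 of these genes. A mean of at least 1 CPM was reached by 40 of them. With DESeq2, 0 of these 40 were called in either direction, where 3.71% of all genes with that mean were. In cKO 20 were higher and 20 lower, with a median log2 fold change of 0.00. Before adjustment the DESeq2 p was under 0.05 for 4 genes, Ell2, Eaf1, Cdk12 and Cdk13, all higher in cKO, of which Eaf1 and Cdk13 were named after their values were seen. At that limit 7.2% of all genes were higher and 6.31% lower. The 3 genes of the 7SK particle ranged from -0.11 for Hexim2, the paralog of Hexim1, to 0.22 for Larp7, which encodes the protein bound to the 3′ end of 7SK. Hexim2 gave 4.13 to 4.95 CPM in WT and 4.03 to 4.38 CPM in cKO.

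Of 9 tested genes that recruit P-TEFb, 5 were higher and 4 lower. Ell2, an elongation factor of the super elongation complex, gave 7.55 and 8.15 CPM in WT and 13.8 and 10.5 CPM in cKO. Its log2 fold change of 0.62 (SE 0.22) was the largest of the 40 genes, with a DESeq2 adjusted p = 0.0873. Mllt1, another subunit of that complex, had the lowest value of its list, -0.15 (SE 0.0812, DESeq2 adjusted p = 0.404). For the 8 genes of the PAF1 complex and its partners the log2 fold changes lay between -0.13 for Leo1 and 0.07 for Ctr9.

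Of the 6 genes for transcriptional CDKs and their cyclins, 5 were higher in cKO, with a median of 0.15. Cdk12, which encodes a kinase of the Pol II C-terminal domain, gave 123 and 120.1 CPM in WT and 143 and 139 CPM in cKO. Its log2 fold change was 0.21 (SE 0.0829, DESeq2 adjusted p = 0.149), while its cyclin gene Ccnk had the lowest value of the list, -0.02. The 14 genes of Integrator, a complex that cuts nascent RNA and brings the PP2A phosphatase to paused Pol II, ranged from -0.10 for Ints5 to 0.18 for Ints12, 7 of them on each side.

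**Figure D5:**
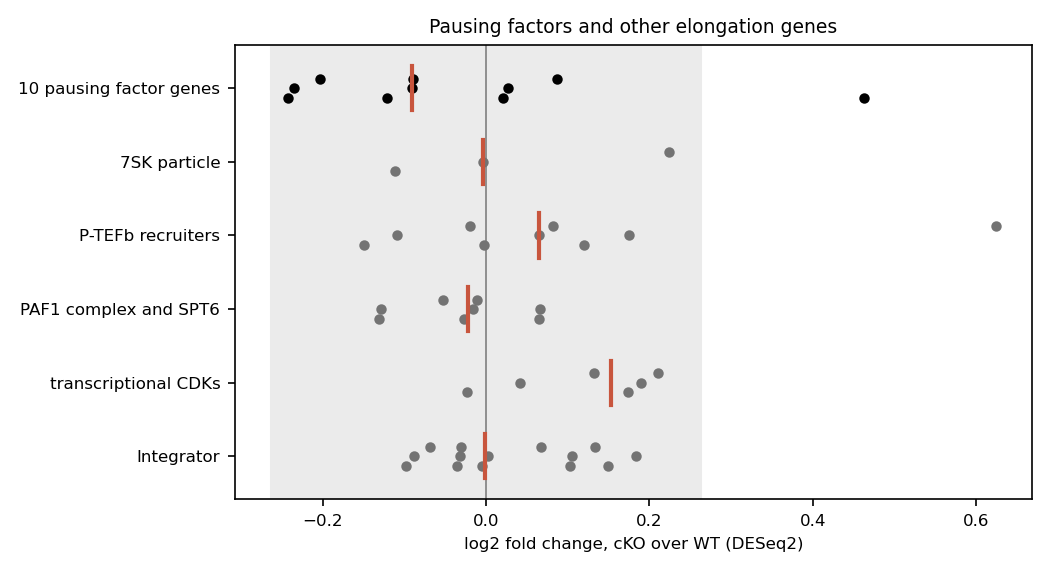
Log2 fold change of cKO over WT from DESeq2 for the 10 pausing factor genes (black) and the 40 tested genes of 5 lists (grey), with the median of each list as a red line and changes under 1.2-fold as a grey band. Nelfe and Ell2 are the points outside the band, and neither was called.

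Few bases of these genes are shared with other counted genes. Nelfa shares its last 51 bp with Nsd2 on the opposite strand and contains Mir7024 of 62 bp on its own strand, where 55 to 86.5 fragments were counted. Nelfcd overlaps Ctsz by 9 bp and Ccnt1 overlaps 9330020H09Rik by 413 bp, each on the opposite strand. Nelfe lies 186 bp from Skiv2l and 1 bp from Cfb, both on the opposite strand, and Cfb had at most 1 fragment in a library. The other 6 genes overlap no other counted gene.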

How the data were processed

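The deposited table held expected counts of fragments per gene for 2 WT and 2 cKO TTchem-seq libraries of DP thymocytes, with a gene length column in bp. Per the labels' processing notes the authors used fastp 0.13.1, STAR 2.7.9a and featureCounts 1.6.1 on mm10. The study's methods name the STAR output as the source of counts. Of the values, 8.61% were fractional, and how fractions were assigned was not stated. For all 24984 genes the length equalled the union of transcript spans, so introns were counted. The labels describe poly(A) capture and the methods rRNA depletion of the labelled RNA. The libraries kept strand, but whether counting used it was not stated. Spike-in scaling was not applied. The methods mention marking of duplicates and do not mention molecular identifiers, so fragments cannot be taken as independent molecules. The exact Poisson intervals cover counting error only, and the intervals of fold changes include the fitted spread between libraries.

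Libraries were assigned to genotypes by sample title. The labels give no mouse of origin, so p-values measure the spread between these libraries. CPM used the totals of the table, and counts were rounded for testing. Following the study's methods, the main test was the DESeq2 Wald test on all genes without covariates, with default size factors, independent filtering at 0.1 and Benjamini-Hochberg adjustment. Intervals of log2 fold changes are the estimate plus or minus 1.96 SE. Alternatives were edgeR quasi-likelihood, limma voom, other scalings and filters, removal of a length trend, a replicate block and leaving out each library. The scripts were tested on simulated data. The 10 genes and the lists were chosen with earlier results of these data known. All 10 are named, and of each further list the called genes or else the highest and lowest. Tests were run in R 4.3.3 with limma 3.58.1, edgeR 4.0.16 and DESeq2 1.42.0, and other steps in Python 3.11.15 with scipy 1.17.1, pandas 2.3.3 and matplotlib 3.10.9. Not all marker genes are reported singly here.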

Additional observations from a re-analysis of the deposited data

How the results depend on the processing

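The number of pausing factor genes called was 0 in each direction in every alternative run. Over the 10 genes and 16 alternatives, 156 of the 160 values kept their direction and their side of the threshold. The alternatives without the CPM criterion, the fold criterion or independent filtering used the main fold changes, so direction could not change in them. The sign changed for Cdk9 without WT replicate 1 (-0.024) and without cKO replicate 2 (-0.057), and for Ccnt2 without cKO replicate 2 (-0.092) and with a length trend removed (-0.0065), and the highest values without 1 library were 0.11 for Cdk9 and 0.13 for Ccnt2. The 95% interval lay within 1.2-fold for 4 genes with all libraries, 3 with the length trend removed (not Nelfa) and 1 with the replicate block in DESeq2 (Ccnt2), where that of Nelfe reached 2.04-fold. The lowest adjusted p for Supt5 was 0.07, with the length trend removed. The median over the 10 genes, -0.09, ranged from -0.094 to -0.061 with 1 library left out, the latter without cKO replicate 1.

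Over all genes, against 249 increased and 182 decreased, edgeR called 48 and 10 and limma voom 50 and 11. The labels do not state whether libraries of the same replicate number were paired. Their deviations from the group means correlated at -0.03 over 11625 genes, and this single correlation cannot settle the design. A replicate block gave no call among the pausing factor genes, and with it DESeq2 called 121 and 72 and edgeR 19 and 9. Without WT replicate 1 DESeq2 called 113 and 71, without cKO replicate 1 78 and 48, and without cKO replicate 2 61 and 28, so that leaving out 1 library gave 61 to 320 increased and 28 to 126 decreased genes. The log2 fold change of Tox4 stayed at -0.31 with edgeR (adjusted p 0.153), limma voom (0.143), total count factors (0.0511), independent filtering off (0.0821) and the replicate block (0.361 with DESeq2 and 0.232 with edgeR), and lay between -0.34 and -0.28 with 1 library left out (adjusted p 0.196 to 0.792). The cause of these changes was not tested. With CPM in place of CPM per kb, Supt5 came first in the order of levels and Hexim1 came to position 5, since CPM are not divided by length. Nelfe stayed at position 10.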

Other observations

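Nsd2, the convergent neighbour of Nelfa, was looked at after its values had been seen. It encodes a histone H3 lysine methyltransferase. The gene gave 67.4 and 86.6 CPM in WT and 119 and 115 CPM in cKO, with a log2 fold change of 0.60 (SE 0.117), a DESeq2 adjusted p = 3.87e-05 and an edgeR adjusted p = 0.104. With WT replicate 1 left out it was 0.43 (DESeq2 adjusted p = 0.0236). The genes overlap by 51 bp, and Nelfa had a log2 fold change of -0.09.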
